A study of Mus musculus with 36 samples.

Results

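Collagen genes were followed through mouse submandibular salivary glands with and without a genetically induced tumor. Every gene row of the 26 Drop-seq tables named Col, a number, a and a second number was taken, which gave 44 names, and the 37 of these with 10 or more transcript counts over the 26 glands were kept, out of 29502 genes in the tables. Drop-seq counts unique molecular identifiers (UMIs), 1 for each captured transcript, in single cells. Levels below are counts per 1000000 (CPM), that is the UMIs of a gene in the kept cells of 1 gland, or in its cells of 1 type, over all UMIs of those cells and scaled to that total.

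Control mice carried K14-Cre and the R26-EYFP reporter, and double-mutant mice carried both of these together with the beta-catenin gain-of-function (GOF) and Bmpr1a loss-of-function (LOF) alleles, all on a C57BL/6 background. K14-Cre is driven by a keratin promoter, so both alleles are recombined in the K14-expressing basal lineage. Each library came from the dissociated and live-sorted cells of 1 gland of a female or male mouse at postnatal day 40 (P40; 6 control and 7 double-mutant glands) or day 90 (P90; 6 control and 7 double-mutant glands). Further libraries were 4 CITE-seq glands of about P70, 2 of each genotype, and 2 bulk RNA libraries from undissociated female glands, 1 control of P70 and 1 double mutant of P100.

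Collagens are triple-helical proteins of the extracellular matrix, and each helix is wound from alpha chains that separate genes encode. Fibrillar collagens give connective tissue its tensile strength and are made mainly by fibroblasts, whereas collagen IV forms the sheet of the basement membrane under epithelium and around vessels. Collagen XVII spans the membrane of basal epithelial cells in the hemidesmosome, and collagen VII forms the anchoring fibrils that tie the basement membrane to the stroma below.

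Of the 26987 deposited barcodes, 23346 cells passed the filters, and 14 of the 23332 distinct barcodes occurred in more than 1 library. Kept UMIs per gland ranged from 2324335 to 6994504 in control P40, from 650301 to 6512411 in double-mutant P40, from 1679478 to 2558112 in control P90 and from 691944 to 3928909 in double-mutant P90 glands. In 2 libraries, double-mutant P40 replicate 1 and double-mutant P90 replicate 5, sex-linked transcripts went against the labelled sex, and the study left double-mutant P90 replicate 4 out of its sub-clusters. The first 2 are both of batch 11, 1 labelled male P40 and the other female P90, so an exchange of both libraries, which would also exchange their stages, and a wrong sex label cannot be told apart. Results without these libraries are given for the fits across glands that hold them, and levels by cell type include them. Bmpr1a ranged from 9.50 to 26.2 CPM in control and from 8.91 to 46.6 in double-mutant glands, and Ctnnb1, which encodes beta-catenin, from 22.8 to 126 and from 33.6 to 270, but transcript ends counted over all cells do not check either allele. The Wnt target Axin2 had a median of 0.608 in control and 13.1 in double-mutant glands.

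The 37 collagens together were a small share of the RNA. Their summed level ranged from 50.9 to 278 CPM in control P40 glands (median 63.1) and from 45.1 to 145 in control P90 glands (median 84.3). It ranged from 176 to 1553 in double-mutant P40 glands (median 345) and from 94.2 to 1328 in double-mutant P90 glands (median 562). By UMIs in all deposited barcodes, 10 fibrillar genes held 6893, 6 basement membrane genes 3675, 7 fibril-associated genes 1497, the multiplexins Col15a1 and Col18a1 1163, the anchoring fibril gene Col7a1 868, 5 beaded filament (collagen VI) genes 837, 3 transmembrane genes 732, 2 network (collagen VIII) genes 170 and Col28a1 19. Col3a1 with 2410 UMIs and Col1a2 with 2357 were the most abundant, and Col9a1 entered with exactly 10, just above Col25a1 with 8, which was not kept.

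Cells were clustered with the collagens held out, and clusters were named from marker genes that contain no collagen. Fibroblast-like cells were 1.76% of all cells (411 cells, of which 349 were double-mutant and 62 control) and held 54.8% of the collagen UMIs. Endothelial-like cells (1012 cells) held 13.6%, basal-like epithelial cells (1605 cells) 11.7% and acinar-like cells, the secretory cells, 6.25% although they were 28.7% of the cells. By UMIs the leading type was fibroblast-like for 16 collagens, basal-like for 10, acinar-like for 4, endothelial-like and immune-like for 3 each and ductal Smgc/Esp4-like for 1.

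**Figure D1:**
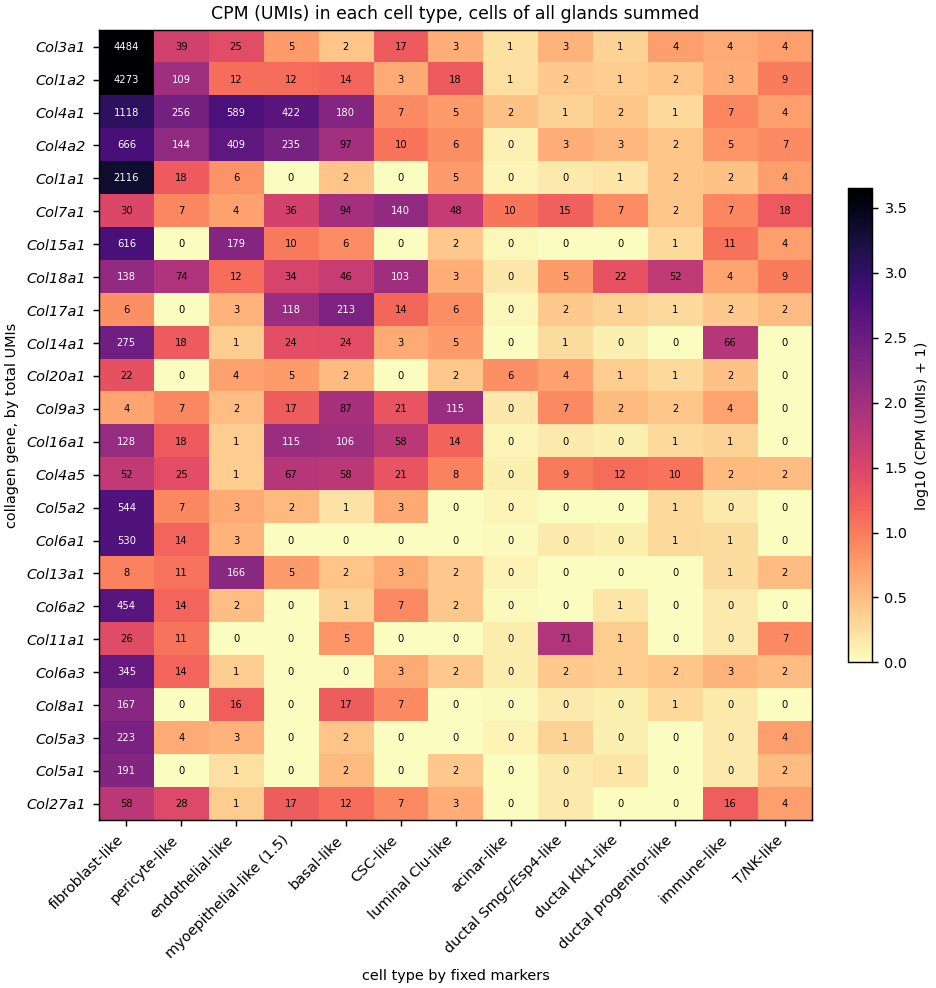
Heat map of the 24 collagens with 100 or more kept UMIs (rows, by total UMIs) in marker-defined cell types (columns), with the cells of all 26 glands summed; the number in each field is CPM and the colour its log10 after adding 1. The myoepithelial-like column comes from a finer clustering (resolution 1.5), and its cells lie within the basal-like column. Col3a1, Col1a2 and Col1a1 stand out in the fibroblast-like column, Col4a1 and Col4a2 reach from fibroblast-like to basal-like cells, and Col17a1, Col7a1 and Col9a3 lie on the epithelial side.

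The heat map of collagens by cell type shows that collagen I and III were found almost wholly in fibroblast-like cells. Col3a1 encodes the single chain of collagen III and lies at chr1:45311538-45349706 on the plus strand, and Col1a2 encodes the second chain of collagen I and lies at chr6:4504814-4541544 on the plus strand (GENCODE vM21 on GRCm38). In fibroblast-like cells Col3a1 was at 5524 ± 3944 CPM (SD, n = 14 glands with 10 or more such cells), Col1a2 at 5070 ± 2572 and Col1a1, the first chain of collagen I, at 2714 ± 1645. These cells held 94.2% of the Col3a1, 92.7% of the Col1a2 and 95.9% of the Col1a1 UMIs. A Col3a1 UMI was present in 69.6% of fibroblast-like cells (95% Wilson interval 65.0 to 73.8) and in 0.37% of acinar-like cells, at median depths of 798 and 3936 UMIs per cell. The deeper acinar-like cells thus set a low background for free RNA, and the intervals cover counting error only. The sequences upstream of the RefSeq start sites of both genes are shown because these were the most abundant collagens. Their levels also did not overlap between genotypes at P90, but the share of all genes without such overlap was not counted. The sequences are printed 5′ to 3′ on GRCm38.p6 without bases of annotated exons, chr6:4505370-4505492 for Col1a2 and chr1:45311288-45311537 for Col3a1, with GGGCGG and TATAAA in capitals. For Col1a2, 127 exon bases were left out. Its stretch is upstream of the RefSeq start site only and lies inside the GENCODE gene given above, since the annotations differ.
Col1a2: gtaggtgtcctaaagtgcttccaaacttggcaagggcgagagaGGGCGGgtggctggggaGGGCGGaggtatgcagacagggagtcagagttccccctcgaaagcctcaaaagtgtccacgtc
Col3a1: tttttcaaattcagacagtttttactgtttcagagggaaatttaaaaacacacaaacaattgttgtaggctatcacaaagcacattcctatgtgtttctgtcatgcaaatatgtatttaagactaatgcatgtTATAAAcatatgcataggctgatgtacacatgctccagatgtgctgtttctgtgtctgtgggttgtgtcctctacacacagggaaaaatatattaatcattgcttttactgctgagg
Col1a2 held GGGCGG at 205 and 188 bases before the start site, and Col3a1 held TATAAA at 117. Over both strands, 32.7% of 32851 RefSeq windows of 250 bases held GGGCGG and 12.4% held TATAAA, against 19 and 4 of the 31 collagens that matched a window. These are letter matches only.

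The collagen V chains were also highest in fibroblast-like cells, whereas the fibrillar chains Col11a1, Col11a2 and Col24a1 had their highest summed levels in ductal Smgc/Esp4-like, cancer stem cell-like (CSC-like) and luminal Clu-like cells, at 70.9, 10.3 and 1.59 CPM. Col5a2, a chain of the collagen V that nucleates fibrils, was at 595 ± 258 CPM in fibroblast-like cells and had 93.5% of its UMIs there, while Col5a1 was at 235 ± 121. The collagen VI chains Col6a1 and Col6a2, which form beaded filaments around cells, were at 555 ± 282 and 536 ± 373 with 93.7% and 92.3% of their UMIs in these cells. Col8a1, a network-forming chain, was at 176 ± 157 and had 54.5% of its UMIs in fibroblast-like, 18.2% in basal-like and 14.9% in endothelial-like cells.

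The basement membrane chains had several sources. Col4a1 (chr8:11198423-11312826, minus strand) and Col4a2 (chr8:11312805-11449287, plus strand) are the paired chains of collagen IV found in most basement membranes, and their annotated genes overlap by 22 bases head to head. The other collagen IV pairs are also head to head, Col4a4 and Col4a3 with 71 bases and Col4a6 and Col4a5 with 1308 bases between the annotated genes. Col4a1 was at 1219 ± 689 CPM in fibroblast-like (n = 14 glands), 767 ± 668 in endothelial-like (n = 22), 528 ± 423 in myoepithelial-like (n = 13), 396 ± 350 in pericyte-like (n = 7) and 185 ± 104 in basal-like cells (n = 22). Neighbours in this order differed by less than the larger of their SDs. The order pools genotypes in unequal numbers, with 12 of the 14 glands for fibroblast-like and 6 of the 13 for myoepithelial-like cells being double-mutant. Pericyte-like cells (at least 5 per gland) and basal-like cells were at 186 ± 230 (n = 6) and 201 ± 72.2 (n = 9) in control glands, and at 604 ± 752 (n = 10) and 174 ± 123 (n = 13) in double-mutant glands. Endothelial-like cells held 43.6% of the Col4a1 and 49.1% of the Col4a2 UMIs. Col15a1, a multiplexin at the outer face of basement membranes, was at 681 ± 393 in fibroblast-like and 225 ± 211 in endothelial-like cells. Col13a1, a transmembrane collagen, had 89.8% of its UMIs in endothelial-like cells, where its level was 204 ± 151.

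Several collagens were measured in epithelial cells. Col17a1 (chr19:47646344-47692094, minus strand) was at 219 ± 172 CPM in basal-like cells (n = 22 glands), which held 88.3% of its UMIs. A Col17a1 UMI was found in 16.8% of basal-like cells (95% Wilson interval 15 to 18.7), in 0.07% of acinar-like cells and in 0 of 182 pericyte-like cells, at median depths of 748, 3936 and 833.5 UMIs per cell. Its upstream sequence is shown because Col17a1 was the collagen that rose within basal-like cells. It covers chr19:47692095-47692292 of GRCm38.p6 and is printed 5′ to 3′ on the minus strand, with TATAAA in capitals at 140 and 91 bases before the RefSeq start site.
Col17a1: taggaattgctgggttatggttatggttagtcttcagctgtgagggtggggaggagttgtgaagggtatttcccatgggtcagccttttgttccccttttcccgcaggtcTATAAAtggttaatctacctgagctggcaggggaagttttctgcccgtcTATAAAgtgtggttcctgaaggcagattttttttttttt
The fibril-associated chain Col16a1 was at 104 ± 98.1 in basal-like cells, which held 57.7% of its UMIs, and at 151 ± 134 in fibroblast-like cells (n = 14), which held 20.6%. Col9a3, a chain of collagen IX better known from cartilage, was at 84.5 ± 88.2 in basal-like and 110 ± 68.3 in luminal Clu-like cells (n = 10). Col18a1, the multiplexin from which endostatin is cut, was spread over stroma and epithelium, at 155 ± 117 in fibroblast-like (n = 14), 126 ± 90.2 in pericyte-like (n = 7), 98.4 ± 65.5 in CSC-like (n = 10) and 46.8 ± 28.7 in basal-like cells (n = 22). The CSC-like cells were 305 double-mutant and 2 control cells.

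Col7a1 was found in several epithelial cell types. It was at 157 ± 187 CPM in CSC-like (n = 10 glands), 97.2 ± 132 in basal-like (n = 22), 47.6 ± 33.0 in luminal Clu-like (n = 10) and 20.1 ± 38.8 in acinar-like cells (n = 26). All neighbours in this order overlapped within their SDs. Because acinar-like cells were many and deep they still held 47.5% of the Col7a1 UMIs, and 4.95% of them had a Col7a1 UMI at a median depth of 3936 UMIs per cell. In immune-like cells the share was 0.73% at a median depth of 637, which is too shallow to serve as a background, and the level of 6.48 ± 8.33 (n = 24) overlapped with that of acinar-like cells. Col20a1, a fibril-associated chain, was low everywhere, with 71.4% of its UMIs in acinar-like cells at 7.86 ± 6.51. Col14a1, a fibril-associated chain that binds collagen I fibrils, was at 359 ± 258 in fibroblast-like cells but had more of its UMIs in immune-like cells (46.1%), at 61.5 ± 38.8 (n = 24), where 5.65% of cells had a UMI against 0.01% of acinar-like cells, at median depths of 637 and 3936.

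Whole glands were then compared between genotypes over the 26 libraries, with sex and stage in the fit (edgeR quasi-likelihood test, Benjamini-Hochberg adjustment over all genes). Of the 14 collagens with enough counts to be tested, 12 were higher in double-mutant glands and 0 lower. Of all 8768 genes tested, 21.6% were called, 14% as higher and 7.64% as lower. The median log2 fold change was 2.03 over the 14 collagens and 0.01 over all genes tested. The filter on low counts favours genes that are high in 1 group, so the fit was also made without it. Then 27 of the 37 collagens were called (9.98% of 29219 genes), and 34 of the 37 had a positive log2 fold change, with a median of 1.93 against 0.10 over all genes. Only Col11a1 (log2 -2.29), Col20a1 (-0.51) and Col24a1 (-0.41) were negative. Scaling to library totals in place of trimmed means raised the median log2 fold change of all genes to 0.63 and turned Col20a1 positive, so the fold changes below are relative to the median gene.

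**Figure D2:**
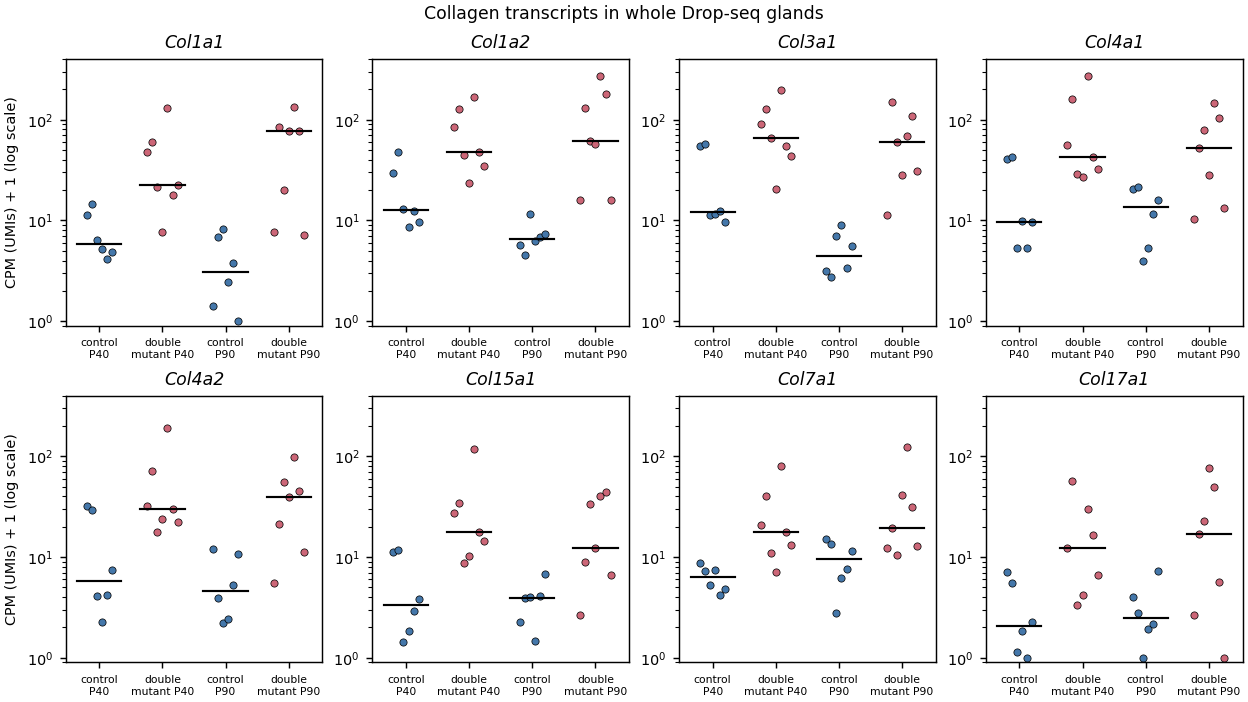
CPM plus 1 (log axis) of 8 collagens in each of the 26 Drop-seq glands by genotype and stage; each point is 1 gland and each line the group median. For Col1a2 and Col3a1 all 7 double-mutant P90 glands lie above all 6 control P90 glands, while at P40 the groups overlap for all 8 genes. The share of all genes without overlap was not counted.

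Among fibrillar genes, Col1a1 ranged from 3.17 to 13.5 CPM in control P40 glands (median 4.81), from 6.68 to 131 in double-mutant P40 (median 21.5), from 0 to 7.15 in control P90 (median 2.08) and from 6.11 to 132 in double-mutant P90 glands (median 75.5). It rose by 2.54 ± 0.45 on the log2 scale (SE; 5.83-fold, adjusted p = 0.000628). Col1a2 ranged from 7.54 to 46.8 (median 11.7), 22.7 to 168 (median 46.5), 3.53 to 10.7 (median 5.55) and 15 to 272 (median 60) in the same 4 groups. Its log2 rise was 2.20 ± 0.38 (4.58-fold, adjusted p = 0.000431). Col3a1 ranged from 8.72 to 55.8 (median 11), 19.5 to 195 (median 64.2), 1.76 to 8.08 (median 3.47) and 10.4 to 149 (median 58.7), and rose by 2.03 ± 0.41 (4.07-fold, adjusted p = 0.0018). Control P40 replicates 1 and 2, both of batch 12, were high for Col3a1 at 54.2 and 55.8, where the other 4 control P40 glands reached at most 11.4. Col5a2 ranged from 0.572 to 5.10 (median 1.29), 2.63 to 19.0 (median 10.4), 0 to 2.94 (median 0.585) and 1.53 to 18.7 (median 9.55), and rose by 2.03 ± 0.37 (adjusted p = 0.000788).

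Of the 3 tested basement membrane genes 2 rose. Col4a1 ranged from 4.27 to 41.7 CPM in control P40 glands (median 8.76), from 25.9 to 274 in double-mutant P40 (median 41.5), from 2.98 to 20.6 in control P90 (median 12.8) and from 9.25 to 146 in double-mutant P90 glands (median 51.2). It rose by 1.59 ± 0.38 on the log2 scale (3.01-fold, adjusted p = 0.00561). Col4a2 ranged from 1.26 to 31.0 (median 4.79), 16.9 to 189 (median 29.0), 1.19 to 11.1 (median 3.62) and 4.48 to 96.8 (median 38.6), and rose by 1.77 ± 0.42 (adjusted p = 0.00547). Both overlapped between genotypes at both stages. Col4a5, a chain of the epithelial collagen IV network encoded on the X chromosome, gave a log2 difference of 0.30 ± 0.39 that did not pass (adjusted p = 0.605).

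The multiplexin Col15a1 ranged from 0.429 to 10.8 (median 2.36), 7.68 to 118 (median 16.7), 0.475 to 5.75 (median 2.96) and 1.68 to 43.6 CPM (median 11.2) in control P40, double-mutant P40, control P90 and double-mutant P90 glands, and rose by 2.13 ± 0.44 on the log2 scale (adjusted p = 0.0024). Col18a1 ranged from 1.14 to 8.17 (median 3.45), 4.76 to 26.7 (median 9.92), 0.475 to 5.75 (median 4.05) and 3.36 to 41.9 (median 18.2), and rose by 1.25 ± 0.27 (adjusted p = 0.00327). For both genes 5 of the 7 double-mutant P90 glands lay above the highest control. The fibril-associated Col14a1 ranged from 0.475 to 6.02 (median 1.04), 3.99 to 33.8 (median 6.53), 0 to 4.69 (median 1.96) and 2.52 to 49.1 (median 16.2), and rose by 2.18 ± 0.41 (adjusted p = 0.00105). Col16a1 rose by 2.22 ± 0.57 (adjusted p = 0.00881), whereas Col20a1 gave -0.43 ± 0.35 and did not pass (adjusted p = 0.373).

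Both anchoring genes rose. Col7a1 ranged from 3.17 to 7.74 CPM in control P40 glands (median 5.30), from 6.10 to 80.0 in double-mutant P40 (median 16.7), from 1.79 to 14.1 in control P90 (median 8.50) and from 9.55 to 123 in double-mutant P90 glands (median 18.2). Its log2 rise was 1.33 ± 0.30 (2.52-fold, adjusted p = 0.00405), and 6 of 7 double-mutant P40 glands were above the highest control of that stage. Col17a1 ranged from 0 to 6.02 (median 1.06), 2.30 to 56.1 (median 11.3), 0 to 6.32 (median 1.47) and 0 to 74.8 (median 15.9), with a log2 rise of 2.42 ± 0.59 (5.36-fold, adjusted p = 0.00702). Double-mutant P90 replicate 7 had no Col17a1 UMI.

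Several lower collagens were not tested after the filter and are given as levels. Col8a1 had group medians of 0.233, 4.95, 0.535 and 9.55 CPM in control P40, double-mutant P40, control P90 and double-mutant P90 glands, with ranges of 0 to 2.70, 0.461 to 13.8, 0 to 2.30 and 0.255 to 26. Col6a2 had medians of 1.55, 5.48, 1.14 and 4.55 in the same groups, with ranges of 0.429 to 6.6, 2.62 to 29.3, 0.391 to 2.38 and 1.25 to 16.3. Both genes overlapped between genotypes at each stage. Col6a5, a longer collagen VI chain, had 0 UMIs in all control P40 and 2 in all control P90 glands, against 7 and 10 in double-mutant glands. Col6a1 did not overlap at P90, with 0 to 1.56 in control and 1.68 to 18.8 in double-mutant glands, and Col23a1 did not overlap at P40. The share of all genes without overlap was not counted.

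For most tested collagens the direction of the genotype rise held within batches and without doubtful libraries. In the 5 batches with both genotypes the double-mutant mean was higher in 5 of 5 for Col1a2, Col3a1 and Col4a1 and in 4 of 5 for Col17a1. The log2 ratio of Col3a1 ranged from 0.205 to 3.89. In batches 12 and 13 the controls were of P40 and the double mutants of both stages. With batch as a covariate, 11 of 13 collagens were higher over 19 glands (1608 of 8429 genes called). At P40 that fit used 10 glands and called 0 of 19, with 7 at an unadjusted p under 0.05 (1018 of 10016 genes, edgeR). Without the 2 libraries that went against their sex label, 8 of 9 tested collagens were higher (14.3% of genes called), and without double-mutant P90 replicate 4, 11 of 13 were (19.9% of genes called). In the first of these fits Col17a1 no longer had enough counts to be tested, and in the second it rose by 2.15.

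The shares of several cell types moved with this result. Fibroblast-like cells had a median share of 0.49% of cells in control glands (0.262 to 1.27) and 2.97% in double-mutant glands (0.971 to 5.37), endothelial-like cells 2.19% and 5.03%, and basal-like cells 3.61% and 7.49%. Immune-like cells had medians of 4.35% and 14.1%, CSC-like cells 0 and 1.91% and luminal Clu-like cells 0 and 4.14%. The immune-like cells, which held 46.1% of the Col14a1 UMIs, had Col14a1 at 40.4 ± 27.0 CPM in control (n = 10) and 76.7 ± 39.5 in double-mutant glands (n = 14), with overlapping ranges, and 7 of 8 immune markers were higher in whole glands. The part of immune-like cells in the Col14a1 rise was not tested. The summed level of 10 fibroblast markers, all of them detected, ranged from 15.2 to 234 CPM in control and from 71.0 to 961 in double-mutant glands, and the 4 of them that were tested were all higher. Without the fibroblast-like cells, 6 of 8 tested collagens were higher in double-mutant glands (19.6% of genes called), among them Col15a1 (log2 2.05), Col4a2 (1.53), Col4a1 (1.33) and Col18a1 (0.96), and the collagen I and III genes no longer had enough counts to be tested. Without fibroblast-, pericyte- and endothelial-like cells, 3 of 5 were higher (18.6% of genes called), namely Col17a1 (2.58), Col7a1 (1.44) and Col18a1 (0.91), while Col4a1 gave 0.14 (adjusted p = 0.85).

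**Figure D3:**
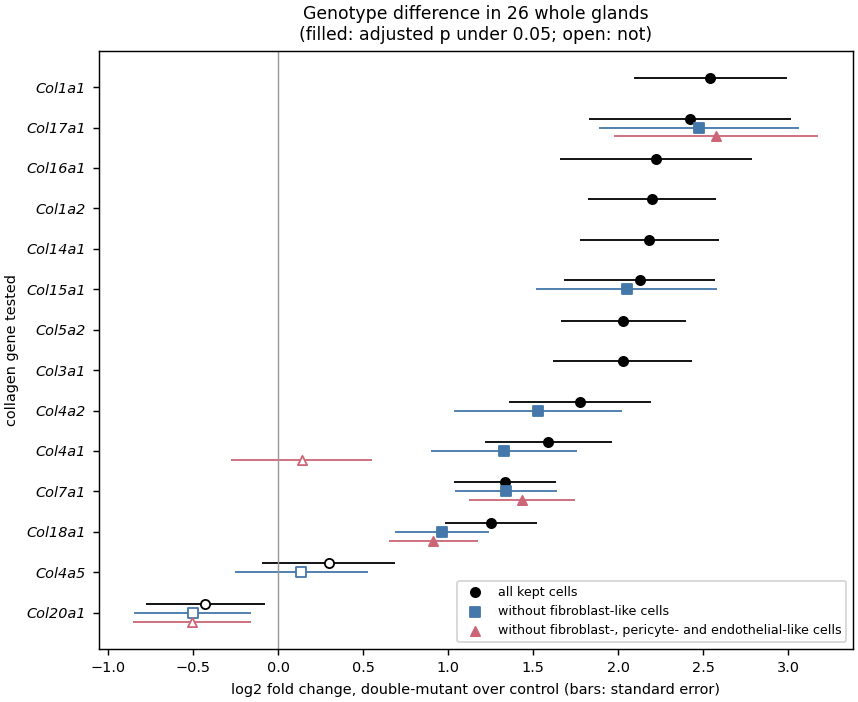
Log2 fold change (double-mutant over control, horizontal axis, bars for the standard error) of the 14 collagens tested in 26 whole glands, with all kept cells (black), without fibroblast-like cells (blue) and without fibroblast-, pericyte- and endothelial-like cells (red); filled symbols passed at adjusted p under 0.05. Col17a1, Col7a1 and Col18a1 stay to the right of 0 in all 3 fits, Col4a1 falls to 0.14 without stromal and vascular cells, and fibrillar genes have only the black symbol because too few counts remained.

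The plot of fold changes with and without stromal cells counts cells and RNA per cell together, so levels were next compared within cell types. In fibroblast-like cells, 0 of 11 tested collagens differed between 5 control and 14 double-mutant glands with at least 5 such cells (0 of 343 genes, 0.0% called, by edgeR). At an unadjusted p under 0.05 there were 0 collagens and 44 genes, and DESeq2 called 0 collagens and 2 genes. Col3a1 was at 4139 ± 3909 CPM in control (SD, n = 5) and 5433 ± 3899 in double-mutant glands (n = 14), a log2 difference of 0.40 ± 0.61 (adjusted p = 0.861, edgeR). Col1a2 was at 3262 ± 2477 and 5040 ± 2577 (log2 0.45 ± 0.50, adjusted p = 0.802, edgeR), and Col1a1 at 1975 ± 1712 and 2730 ± 1639 (log2 0.37 ± 0.49, adjusted p = 0.847, edgeR). The ranges overlapped for all 3 genes, which does not show that the levels were equal. In levels only, since neither was tested, Col18a1 in these cells was at 10.2 ± 22.9 in control (range 0 to 51.1) and 208 ± 135 in double-mutant glands (0 to 480), and Col16a1 at 43.2 ± 41.7 and 154 ± 136, with overlapping ranges. Control glands gave few fibroblast-like cells, and a minimum of 10 cells per gland could not be fitted because only 2 control glands reached it.

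In endothelial-like cells 0 of 4 tested collagens passed (8 control and 14 double-mutant glands; 0 of 628 genes, 0.0% called), although all 4 had an unadjusted p under 0.05 by edgeR, as did 78 of the 628 genes, and DESeq2 called 0 collagens and 9 genes. Col4a1 was at 376 ± 267 CPM in control and 990 ± 731 in double-mutant glands (log2 1.17 ± 0.44, adjusted p = 0.273, edgeR). Col15a1 was at 111 ± 92.3 and 290 ± 235 (log2 1.22 ± 0.42, adjusted p = 0.248, edgeR). The double-mutant range of Col4a1, 37.8 to 2337, covered that of control glands, 120 to 769. In myoepithelial-like cells Col4a1 gave a log2 difference of -0.38 ± 0.44 (adjusted p = 0.921, edgeR; 252 genes tested, 0.0% called, 22 at an unadjusted p under 0.05). In pericyte-like cells no collagen had enough counts to be tested (75 genes tested, 1.33% called).

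Within the cells named basal-like, which include myoepithelial-like cells at this clustering, Col17a1 rose. It ranged from 0 to 142 CPM over 9 control glands (median 82.0) and from 97.8 to 532 over 13 double-mutant glands (median 275), and 11 of the 13 lay above the highest control. The log2 rise was 1.79 ± 0.35 (3.46-fold, adjusted p = 0.0016, edgeR), in a fit that called 6.79% of 1031 genes, 5.33% as higher. Col4a1, the other collagen tested there, was at 201 ± 72.2 in control and 174 ± 123 in double-mutant glands (log2 -0.63 ± 0.30, adjusted p = 0.189, edgeR). Col17a1 rose by 2.24 and 2.25 with coarser and finer clustering, by 1.79 without the libraries that went against their sex label and by 1.68 without double-mutant P90 replicate 4. In levels only, Col7a1 in basal-like cells was at 30.2 ± 28.0 in control and 144 ± 156 in double-mutant glands, Col16a1 at 49.98 ± 37.3 and 141 ± 111, and Col9a3 at 44.5 ± 31.4 and 112 ± 104, each with overlapping ranges.

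**Figure D4:**
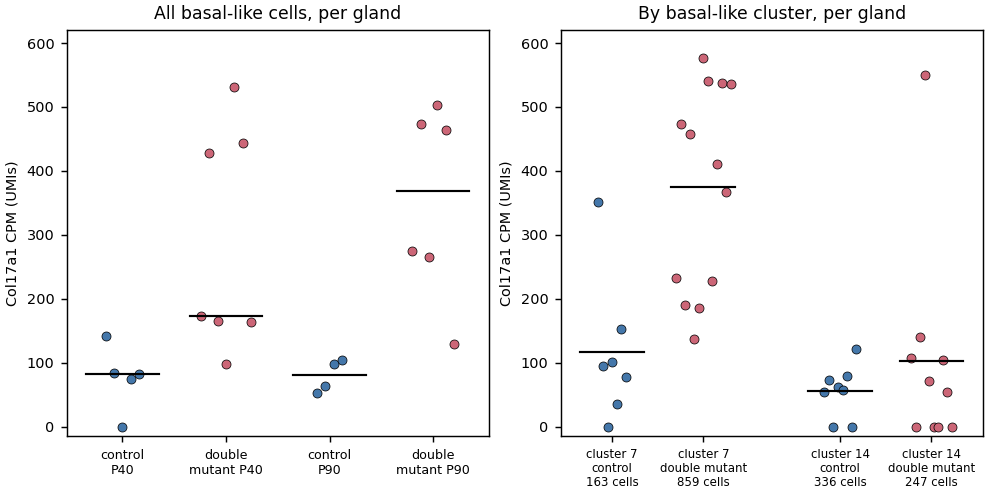
Col17a1 in basal-like cells. Left, CPM in each gland with 10 or more basal-like cells by genotype and stage (points) with group medians (lines); right, CPM in each gland with 10 or more cells of a basal-like cluster, for both clusters (points) with group means (lines). On the left 11 of 13 double-mutant glands lie above all controls, and on the right the genotypes overlap in both clusters, with means of 116 and 375 in cluster 7 and 55.9 and 103 in cluster 14.

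The basal-like cells came from 2 clusters, of which cluster 14 held most of the control and cluster 7 most of the double-mutant cells, as the plot of Col17a1 in basal-like cells shows. Cluster 7 held 163 control and 859 double-mutant cells, and its Col17a1 level was 116 ± 115 CPM over 7 control glands (range 0 to 352) and 375 ± 160 over 13 double-mutant glands (137 to 577). Cluster 14 held 336 control and 247 double-mutant cells, at 55.9 ± 40.3 over 8 control glands (0 to 121) and 103 ± 166 over 10 double-mutant glands (0 to 550). In the finer clustering most of the double-mutant cells of cluster 7 formed a cluster of 741 double-mutant and 34 control cells, at 443 ± 194 over 11 double-mutant glands (56.5 to 675), while no control gland had 10 such cells. The finer clustering also set apart a myoepithelial-like cluster of 129 control and 115 double-mutant cells, which lie within the basal-like cells. Its Col17a1 level was 137 ± 190 over 7 control glands (0 to 556) and 193 ± 134 over 6 double-mutant glands (0 to 387). The basal-like cells were thus not the same mix in both genotypes. The genotype ranges overlapped in cluster 7, in cluster 14 and in the myoepithelial-like cluster. These clusters were examined after the values were seen, so no test is given.

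At P40 alone, 0 of 18 tested collagens passed (0.175% of 9735 genes called by edgeR), 15 had an unadjusted p under 0.05 (2262 of the 9735 genes), and DESeq2 called 9 (619 genes). Without the library that went against its sex label 0 of 16 passed (7 of 9551 genes called). Col1a1 gave a log2 difference of 1.76 ± 0.37 (adjusted p = 0.061), Col1a2 1.26 ± 0.31 (adjusted p = 0.0858) and Col17a1 2.29 ± 0.72 (adjusted p = 0.12). At P90 alone, 4 of 7 tested collagens were higher (4.07% of 8419 genes called, 2.85% as higher). Without the library that went against its sex label 4 of 6 were higher (165 of 8021 genes called). Without replicate 4 the count was 5 of 6 (414 of 8041 genes called). Col3a1 rose by 3.44 ± 0.53 (10.9-fold, adjusted p = 0.00367), Col1a2 by 3.38 ± 0.54 (10.4-fold, adjusted p = 0.0041), Col1a1 by 3.60 ± 0.77 (12.1-fold, adjusted p = 0.0187) and Col4a2 by 2.20 ± 0.47 (4.60-fold, adjusted p = 0.0187). Col4a1 (1.71 ± 0.48, adjusted p = 0.0622) and Col7a1 (1.30, adjusted p = 0.0845) did not pass.

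The difference between the stages was tested itself. Of 14 tested collagens 0 passed for a genotype effect that differed between P40 and P90 (1 of 8768 genes, 0.0114% called by edgeR). At an unadjusted p under 0.05 there were 3 collagens and 496 genes, so equal effects are not shown. None passed without the libraries against their sex label (9 tested, with 2 collagens and 374 genes at an unadjusted p under 0.05). None passed without double-mutant P90 replicate 4 (13 tested, with 2 and 776). Without the filter on low counts 4 of 37 collagens were called (0.647% of 29219 genes). The interaction was 2.30 ± 0.68 for Col3a1 and 2.07 ± 0.61 for Col1a2 (adjusted p = 0.579 for Col3a1). Between P90 and P40 double-mutant glands, 0 of 17 collagens passed (0 of 8614 genes, 0.0% called by edgeR; 1 collagen and 465 genes at an unadjusted p under 0.05; DESeq2 called 0 collagens and 1 gene). Without the libraries against their sex label 0 of 16 passed, with 0 collagens and 416 genes at an unadjusted p under 0.05, and without replicate 4 0 of 20 passed, with 1 and 455.

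In control glands Col3a1 and Col1a2 fell from P40 to P90. All 6 control P40 glands were above all 6 control P90 glands for Col3a1, though the share of all genes without overlap was not counted. Col3a1 fell by 2.73 ± 0.52 on the log2 scale (adjusted p = 0.00322, edgeR). Col1a2 fell by 1.83 ± 0.34 (adjusted p = 0.00268, edgeR), with overlapping ranges. These were 2 of 8 tested collagens in a fit that called 8.18% of 7936 genes, 1.21% as lower, and Col1a1 gave -1.47 ± 0.54 (adjusted p = 0.134). The fibroblast-like share of UMIs moved the same way, with medians of 0.325% at P40 and 0.130% at P90. Their share of cells did not, with medians of 0.486% and 0.496%, and the summed fibroblast markers had medians of 47.9 and 71.6 CPM. Without fibroblast-like cells neither gene had enough counts to be tested, and stage and batch cannot be told apart in control glands.

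Between male and female control glands 0 of 8 tested collagens passed by edgeR, in a fit that called 0.895% of 7936 genes. At an unadjusted p under 0.05 there were 1 collagen and 968 genes, and DESeq2 called 0 collagens and 170 genes. Col11a1, a fibrillar chain of cartilage-type fibrils, was too low in most glands to be tested there but had a sharply limited source. In control female glands it ranged from 0.769 to 6.88 CPM at P40 (median 1.88) and from 15.3 to 41.4 at P90 (median 28.7), and in control male glands from 0 to 0.600. Of 173 UMIs in control female P90 glands, 151 lay in ductal Smgc/Esp4-like cells, a type named from the markers Esp4, Esp18, Smgc and Gstt1. Smgc encodes a submandibular protein, and not all cells of the type held it. In control male glands 81 cells of the type held 2 Smgc UMIs at P40 and 118 cells held 1 at P90. Whether the mix of cells in the type differed between genotypes was not tested. In double-mutant female P90 glands 124 cells of this type had 0 Col11a1 UMIs while they held 6522 Smgc UMIs, or 42390 CPM of Smgc against 269046 in control female P90 cells of the type. A count of 0 allows up to 3 UMIs in these cells. These 4 glands include double-mutant P90 replicate 5, whose transcripts went against its label, and without it 93 cells of the type had 0 Col11a1 and 6521 Smgc UMIs.

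The 4 CITE-seq glands of P70 gave a further comparison, 2 against 2. The study spiked human HEK cells into these suspensions and removed human cells from its own output. No such step was run here, and whether the tables used still hold those cells was not checked. All 4 glands held both female- and male-linked transcripts, with 60 and 71 male-linked UMIs in control and 16 and 14 in double-mutant glands, so sex was not in the fit. Both double-mutant glands are labelled female and 1 of the control glands male, so sex and genotype are partly confounded there. The summed collagens were at 406 and 476 CPM in control and 2648 and 2767 in double-mutant glands. Of 21 tested collagens 17 were higher and 1 lower in double-mutant glands (13.7% of 10058 genes called by edgeR, 9.24% as higher and 4.47% as lower). Without cells of clusters led by pseudogenes and predicted genes, 15 of 21 were higher and 1 lower (1724 of 9084 genes called). Col1a1 was at 40.6 and 38.5 in control and 327 and 351 in double-mutant glands (log2 2.38 ± 0.26, adjusted p = 0.00284, edgeR). Col3a1 was at 128 and 111 against 775 and 834 (log2 2.04 ± 0.26, adjusted p = 0.00493, edgeR).

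The steepest rise among collagens tested in these glands was that of Col8a1, at 0.572 and 0.907 against 22.7 and 23.9 CPM (17.2-fold, log2 4.10 ± 0.55, adjusted p = 0.0067, edgeR). Col6a5 was at 0 and 1.36 against 18.2 and 17.9 (log2 3.75 ± 0.72, adjusted p = 0.0192, edgeR), although it missed the threshold when 1 of the 4 glands was left out in 3 of 4 cases. Col6a2 rose by 1.77 (adjusted p = 0.0198), Col15a1 by 2.18, Col18a1 by 2.16 (adjusted p = 0.0215) and Col4a1 by 1.65 (adjusted p = 0.0126). Col7a1 was at 10.9 and 10.9 against 23.6 and 10.4, a log2 difference of 0.03 ± 0.45 (adjusted p = 0.974, edgeR), and Col17a1 had 7 UMIs in all and was not tested. Col11a1 was at 12.6 and 7.25 against 3.63 and 2.98 and fell by 2.19 ± 0.56 (adjusted p = 0.0391, edgeR), a call that was lost with library totals, with DESeq2 and in 3 of the 4 fits that left out a gland. Fibroblast-like cells were 3.42% and 3.57% of cells in control and 8.62% and 9.05% in double-mutant glands, and 149 such cells held 98.2% of the Col3a1 and 99.1% of the Col1a1 UMIs. Leaving out 1 gland at a time, which leaves 1 gland in a group, gave fewer called collagens. The median log2 fold change of the tested collagens then ranged from 1.64 to 2.12.

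Chains that share a helix were compared within each gland, where depth cancels. The log2 ratio of Col1a2 to Col1a1 UMIs was 1.03 ± 0.78 in 9 control and 0.99 ± 0.57 in 14 double-mutant glands (SD; difference -0.04, two-sided exact permutation p = 0.910). That of Col4a2 to Col4a1 was -1.06 ± 0.96 in 10 control and -0.64 ± 0.48 in 14 double-mutant glands (permutation p = 0.189, 0.567 adjusted over the 3 pairs). That of Col6a2 to Col6a1 was -0.43 ± 1.16 in 3 control and -0.38 ± 0.61 in 10 double-mutant glands (exact permutation p = 0.874). These ratios compare counts between genes, not molecules per length, since only the ends of transcripts are read.

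In undissociated bulk glands the picture was different. The control was of P70 and the double mutant of P100, so genotype and age cannot be told apart there. With 1 library of each genotype there is no test, the intervals cover counting error only, and fewer cells of a type cannot be told apart from less RNA per cell. The summed collagens were at 515 CPM in control and 357 in the double mutant, a fold of 0.693. Of 35 collagens with 10 or more reads, 26 were lower in the double mutant, and the 95% counting interval of the fold lay below 1 for 21 (47.7% of 15265 genes) and above 1 for 5 (11.6% of genes). The median fold was 0.642 over the collagens and 0.806 over all genes, and 73.8% of genes were lower. Scaling by trimmed means shifted all log2 folds by 0.29 and left 21 collagens lower with a median fold of 0.788.

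Collagen I was almost level in bulk, with 863 and 888 Col1a1 reads (fold 1.02, 0.930 to 1.124) and 1477 and 1438 Col1a2 reads (0.968), and Col3a1 had 3626 and 2817 (0.772, 0.735 to 0.811). Basement membrane and anchoring genes were lower, with 1741 and 878 Col4a1 reads (0.501), 956 and 551 Col4a2 reads (0.573), 1873 and 1193 Col7a1 reads (0.633) and 232 and 136 Col17a1 reads (0.583). On the per-length TPM scale Col3a1 was the highest collagen in both libraries, at 9.39 and 7.36. Col8a1 (17 and 49 reads, fold 2.86, 1.62 to 5.31), Col6a5 (100 and 136, fold 1.35) and Col28a1 (4 and 32, fold 7.95, 2.82 to 30.9) were higher. Col11a1 had 155 and 2 reads (fold 0.0128, 0.00154 to 0.0471), and the summed ductal Smgc/Esp4 markers went from 1864 to 160 CPM. Most of that sum was Smgc, at 1842 and 147 CPM. The other markers of the list fell less, with 267 and 137 Esp4, 308 and 179 Esp18 and 214 and 139 Gstt1 reads. The fibroblast markers summed to 239 and 232 CPM with 7 of 10 higher in the double mutant, and Dcn alone was at 152 and 139. The endothelial markers summed to 54.2 and 43.4, the basal markers to 44.5 and 26 and the myoepithelial markers to 174 and 71.1. The acinar markers summed to 50506 and 43638. Higher sums were found for the pericyte markers (44.2 and 69.5, but 1 of 8 higher), the immune markers (284 and 443) and the CSC markers (12.3 and 72.0). Dissociation, sequencing method and age differ together between these and the Drop-seq libraries and cannot be told apart.

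**Figure D5:**
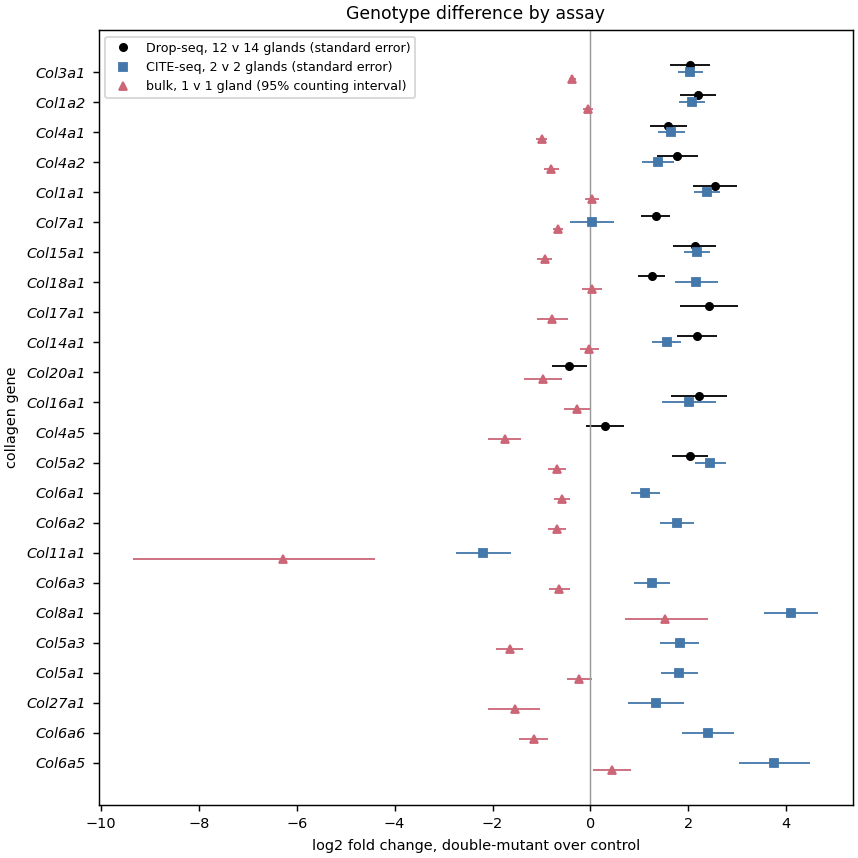
Log2 fold change (double-mutant over control, horizontal axis) of collagens tested in Drop-seq (black, 12 against 14 glands, standard error) or CITE-seq glands (blue, 2 against 2 glands, standard error), with the bulk fold of 1 gland against 1 (red, 95% counting interval). Most black and blue symbols lie between 1 and 3 while most red symbols lie at or left of 0; in CITE-seq and bulk Col11a1 lies left of 0 and Col8a1 and Col6a5 right of 0, and these 3 genes have no Drop-seq symbol because they were not tested after the filter.

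The plot of genotype differences by assay places these values side by side. In Drop-seq without the filter Col11a1, Col8a1 and Col6a5 had log2 fold changes of -2.29, 2.28 and 2.34. Other genes of the collagen pathway were read from 4 lists in the whole-gland fit, which called 14% of 8768 genes as higher and 7.64% as lower. Of the 12 tested biosynthesis and crosslinking genes (36 names), 5 were higher in double-mutant glands and 0 lower, among them Pcolce, an enhancer of procollagen processing (log2 1.51 ± 0.24, adjusted p = 0.000211), the prolyl hydroxylase subunit P4ha1 (1.15 ± 0.28, adjusted p = 0.00604) and Serpinh1, a collagen chaperone (0.80 ± 0.26, adjusted p = 0.0329). Of 4 tested degradation genes 3 were higher, the matrix metalloproteinases Mmp2 (2.38 ± 0.38, adjusted p = 0.000211) and Mmp14 (1.80 ± 0.40, adjusted p = 0.00387) and the inhibitor Timp2 (0.73 ± 0.26, adjusted p = 0.045). Of 4 tested receptors, Lair1 (1.37) and Ddr1 (0.84) were higher. Of 12 tested hemidesmosome and laminin genes 6 were higher, including the basement membrane proteoglycan Hspg2 (2.43 ± 0.45, adjusted p = 0.000838), and Cd151 was lower (log2 -0.37 ± 0.12, adjusted p = 0.0269).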

How the data were processed

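Per the labels and the study's methods, the authors processed Drop-seq and CITE-seq reads with the Drop-seq tools and STAR on mm10 and called cells at the knee of each library's read curve. The deposited single-cell tables hold UMI counts, not normalized, for 26 Drop-seq and 4 CITE-seq glands, and the deposited bulk tables hold read counts from featureCounts by gene name, without a stated strand setting although the kit was stranded. Antibody counts were not used here.

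Cells with at least 100 genes and under 15% mitochondrial UMIs were kept, and in CITE-seq also with under 2500 genes. No doublet caller was run. Cell clusters were gated out in the sort, which does not remove cells that share a droplet afterwards. Within cell types, a fit without cells above the 95th percentile of UMIs was tried. Counts were scaled to 10000 per cell, and cells were clustered (scanpy 1.11.5, 2000 variable genes without collagens, 30 components, 20 neighbours, Leiden resolution 1.0, with 0.7 and 1.5 as alternatives). A cluster was named where at least 3 markers of a list were 2-fold up and in 10% of its cells. Cell type names here may differ from those of the study.

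The UMIs of each gland, and of each cell type in glands with at least 10 such cells (5 for fibroblast-like and pericyte-like cells, since 10 left 2 control glands), were added up and tested with edgeR 4.0.16 (quasi-likelihood, trimmed-mean scaling, filterByExpr) in R 4.3.3, with sex and stage as covariates where both varied and Benjamini-Hochberg adjustment over all genes at 0.05. DESeq2 1.42.0 was an alternative. In counts simulated for the whole-gland comparison over 8716 genes, 99 of 100 genes changed 4-fold, 81 of 98 changed 2-fold and 10 of 8518 unchanged genes were called. Chain ratios used glands with 5 or more UMIs of both chains. The replicates are separate glands. Collagens with values in every group were the 8 with most UMIs, up to 10 per fit with the smallest adjusted p among those called, and Col7a1, Col17a1, Col4a1 and Col4a2. Others are named from the lists. Gene positions are from GENCODE vM21, and promoter windows of 250 bases are from RefSeq on GRCm38.p6. The collagens, gene lists and markers were chosen with earlier results of these data known.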

Additional observations from a re-analysis of the deposited data

Results flagged for a closer look

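Across 14 collagens in 4 groups of 6 or 7 glands, 56 in all, the highest gland stood apart from the rest of its group by Dixon's criterion in 6. Its chance rate of about 1 in 20 holds for independent normal values. These were CPM without a log scale, and 3 of the 6 came from 1 gland, so no excess over chance is read from the count. In double-mutant P40 replicate 5, the shallowest library with 650301 UMIs, Col4a2 was at 189 CPM (next highest gland 69.9), Col1a1 at 131 (next 59.5) and Col15a1 at 118 (next 33.6). In double-mutant P90 replicate 5, whose sex-linked transcripts went against its label, Col7a1 was at 123 (next 39.9). In control P90 glands Col5a2 was at 2.94 in replicate 2 (next 0.782) and Col8a1 at 2.30 in replicate 6 (next 0.782).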

How the results depend on the processing

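The count of called collagens in whole glands, 12 with all settings as reported (1894 of 8768 genes), was 27 without the filter on low counts (2917 of 29219 genes), 4 with each gland thinned to 650301 UMIs (712 of 3890), 6 without fibroblast-like cells (1702 of 8692) and 3 without fibroblast-, pericyte- and endothelial-like cells (1551 of 8348), where fewer collagens were tested. At P40 the count of 0 became 19 without the filter (1657 of 26435 genes) and 9 with DESeq2 (619 of 9735). At P90 the count of 4 became 19 without the filter (1430 of 26771), 7 with DESeq2 (824 of 8419) and 8 of 13 tested with batch as a covariate (925 of 8874), a fit that used 7 of the 13 glands. Without the filter, genotype by stage went from 0 to 4 (189 of 29219), sex in control glands from 0 to 3 (616 of 25652) and stage in control glands from 2 to 7 (2235 of 25652). Stage in control glands gave 0 without fibroblast-like cells and 0 without all stromal and vascular cells, since neither gene was then tested. In CITE-seq glands 18 (1379 of 10058) became 10 with DESeq2 (644), and the count was also lower with 1 gland left out. With at least 10 UMIs of both chains, the chain ratio differences of Col4a2 to Col4a1 and Col6a2 to Col6a1 turned to -0.0192 and -0.327.

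Replicate numbers did not pair the glands, as the correlations of same-numbered glands ranged from -0.27 to 0.50. With a replicate block the count of called collagens at P40 went from 0 to 8 (genes from 17 to 403 of 9735). At P90 it went from 4 to 5 (genes from 343 to 829 of 8419). In CITE-seq glands it went from 18 to 19 (genes from 1379 to 1863 of 10058). In whole glands it was 12 again, while the genes called went from 1894 to 2903 of 8768.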
